A study of Mus musculus with 6 samples.

Results

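The genes described here are those of the endoplasmic reticulum (ER) stress response and the integrated stress response in whole mouse ovary. They were chosen by symbol from a list of 35 names, of which 34 are gene symbols, all present among the 33036 features of the expression table; the last name, Vldlr-independent, is no gene symbol and matched no row. The 34 comprise 6 stress sensors, 3 transcription factors, 6 targets of the factor ATF4, 2 regulators of eIF2α phosphatase, 11 ER chaperones, folding enzymes and secreted ER proteins, and 6 genes of ER-associated degradation. RNA from ovaries of female C57BL/6J mice gave 3 libraries after hypobaric hypoxia and 3 after housing at normal pressure. The hypoxia group was held in a chamber at 43.12 kPa with an oxygen pressure of 8.1 kPa, an altitude of 6500 m by the titles and 5000 m by the descriptions. The normal-pressure group was kept in Lanzhou at 83.56 kPa with oxygen at 17.8 kPa, an altitude given as 1500 m or 1588 m. Exposure lasted 15 days in the series text, and 15, 16 and 17 days for replicates 1, 2 and 3 in the descriptions, for mice of 8 weeks, or 6 to 8 weeks by the descriptions. Light and dark hours read 12 and 12 for the hypoxia samples, and 12 with 12, 13 and 14 for normal-pressure replicates 1, 2 and 3. The labels describe synchronisation of the cycle with levonorgestrel and ethinylestradiol by gavage in both groups but print its doses (0.1 and 0.02 mg/kg) under the hypoxia samples alone, so any difference in dosing and hypoxia cannot be told apart. Each group had 15 mice; the labels do not say which mouse or pool gave each library, so p-values measure the spread between libraries, which may be technical.

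Proteins that enter the ER fold there with the help of chaperones, and unfolded protein in the ER lumen activates 3 membrane sensors. IRE1, encoded by Ern1, splices the messenger RNA of Xbp1 into a form that encodes a potent transcription factor. ATF6 is cut in the Golgi to release its own factor, and PERK, encoded by Eif2ak3, phosphorylates the translation initiation factor eIF2α. PERK shares that substrate with GCN2 (Eif2ak4), which senses amino acid shortage, and HRI (Eif2ak1), which senses haem shortage. Phosphorylated eIF2α lowers general translation but favours translation of ATF4, whose targets serve amino acid supply and redox balance, and this shared output is the integrated stress response. In the ovary, steroid synthesis in the corpus luteum and secretion by granulosa cells and oocytes both use the ER. Much of this signalling runs through phosphorylation, cleavage, splicing and translation, which gene-level RNA values do not measure, and spliced and unspliced Xbp1 are not separated here.

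The promoter elements through which the response acts are shown first, because the values below are set against them. Promoter sequences of RefSeq (build GRCm38.p6, 250 bases before to 50 after each start) were found for 29 of the 34 genes; Atf6, Ppp1r15b, Derl1, Manf and Hyou1 had no entry. The ER stress response element (ERSE), a site for ATF6 and XBP1 with NF-Y, was searched on both strands as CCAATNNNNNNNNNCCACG. It was present in 39 of 32851 promoter entries (0.119%), among them those of 6 of the genes. The windows below run along the strand that carries the match, with the fixed bases CCAAT and CCACG in capitals.
Hspa5 (chr2:34772019-34772049, plus strand): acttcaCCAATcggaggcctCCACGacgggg
Calr (chr8:84847069-84847099, plus strand): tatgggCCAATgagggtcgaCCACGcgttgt
Canx (chr11:50325794-50325824, minus strand): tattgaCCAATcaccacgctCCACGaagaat
Pdia6 (chr12:17266485-17266515, plus strand): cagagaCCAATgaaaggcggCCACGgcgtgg
Creld2 (chr15:88819514-88819544, minus strand): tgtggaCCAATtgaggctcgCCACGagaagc
Syvn1 (chr19:6046526-6046556, plus strand): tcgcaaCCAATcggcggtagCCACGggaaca
The promoter of Hspa5, the gene of the master chaperone BiP, is printed whole with its ERSE in capitals, as the classical target of the ATF6 and XBP1 branches. The promoter of Chac1 is printed because Chac1 was the one gene to pass the test in the values as deposited; its capitals mark the core of the element bound by ATF4 with C/EBP factors (CARE, searched as TGATGNAA on both strands, here read on the minus strand). That short core was found in 1304 entries (3.97%), including Asns, Chac1, Herpud1 and Trib3. Herpud1 is printed because it was the one gene of the 29 with both the CARE core and the second ER stress element (ERSE-II, searched as ATTGGNCCACG, found in 12 entries, 0.0365%), both in capitals. None of these matches overlapped another.
Hspa5 (chr2:34771840-34772139, plus strand): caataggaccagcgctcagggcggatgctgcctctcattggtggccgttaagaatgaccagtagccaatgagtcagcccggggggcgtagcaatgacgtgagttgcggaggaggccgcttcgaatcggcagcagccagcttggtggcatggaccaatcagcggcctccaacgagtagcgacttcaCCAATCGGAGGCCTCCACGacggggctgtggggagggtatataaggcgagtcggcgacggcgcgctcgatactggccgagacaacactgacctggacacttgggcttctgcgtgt
Chac1 (chr2:119350992-119351291, plus strand): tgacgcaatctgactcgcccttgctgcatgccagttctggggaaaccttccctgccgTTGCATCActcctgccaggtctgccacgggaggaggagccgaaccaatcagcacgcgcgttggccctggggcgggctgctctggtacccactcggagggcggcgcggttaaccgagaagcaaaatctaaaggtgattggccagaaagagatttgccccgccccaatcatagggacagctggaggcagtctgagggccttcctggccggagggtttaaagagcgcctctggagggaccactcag
Herpud1 (chr8:94386179-94386478, plus strand): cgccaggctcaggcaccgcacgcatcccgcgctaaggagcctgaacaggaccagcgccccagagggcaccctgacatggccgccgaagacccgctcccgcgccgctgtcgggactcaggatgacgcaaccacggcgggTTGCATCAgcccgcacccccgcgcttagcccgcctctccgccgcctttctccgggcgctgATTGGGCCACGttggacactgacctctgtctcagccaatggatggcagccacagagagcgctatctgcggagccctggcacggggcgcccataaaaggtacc
A match describes letters in these windows and is no evidence of binding.

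Expression was given as TPM, a measure of abundance per unit of transcript length in which all features of a library share one sum. The number of reads behind a TPM value is unknown. Protein-coding genes other than Zfp949, a feature that alone held 10.2% to 16.3% of TPM, made up 44.1%, 43.5% and 42.2% of TPM in hypoxia replicates 1 to 3, against 43.6%, 37.3% and 45.7% in normal-pressure replicates 1 to 3. Normal-pressure replicate 2 thus stood low. Its level was the lowest of its group for 32 of the 34 stress genes, and normal-pressure replicate 3 was the highest for 28. Results are therefore given in TPM as deposited and again with each library scaled to its protein-coding total, one of the scalings tried beside the main test. Of all calls, 60.7% were higher as deposited, 59.7% with that scaling and 46.7% with median-ratio scaling.

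The comparison asked whether housing at low pressure altered ovarian transcripts, here those of the stress response. Transcript levels of the 34 genes differed little between the groups. In TPM as deposited, limma's moderated test on log2(TPM + 1), with Benjamini-Hochberg adjustment over all 17120 features tested, found 0 genes higher and 1 lower, Chac1, at an adjusted p under 0.05. That is 2.94% of the 34, where 18.3% of all tested features passed (11.1% higher and 7.2% lower). Chac1, Sesn2, Pdia4, Dnajb9 and Creld2 made 5 genes with an unadjusted p under 0.05, a threshold met by 32% of all tested features. All 34 met the requirement of at least 1 TPM in 3 libraries, Chac1 through its normal-pressure libraries alone, so its entry into the test favoured a difference. The median log2 fold change, hypoxia minus normal pressure, was 0.0095 over the 34 genes and 0.083 over all tested features, with 20 values above 0 and 14 below.

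The 95% intervals, on log2(TPM + 1) in TPM as deposited, reflect the spread between libraries, which may be technical. They therefore do not bound a biological difference. Scaling moved their centres, as for Pdia4, from -0.46 to -0.55 with median-ratio scaling. The added 1 TPM compresses low genes, as for Trib3, at 0.11, or 0.19 with 0.1 added in its place. Of the 33 genes other than Chac1, 31 had a 95% interval that lay within 1.5-fold in either direction, and all 33 lay within 2-fold. The lowest bound was 0.564-fold, of Pdia4, and the highest 1.53-fold, of Creld2. Summed over the 34 genes, TPM was 2409, 2110.3 and 2068 in the hypoxia libraries, against 2181, 1849 and 2371 in the normal-pressure libraries, and the groups overlapped.

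**Figure D1:**
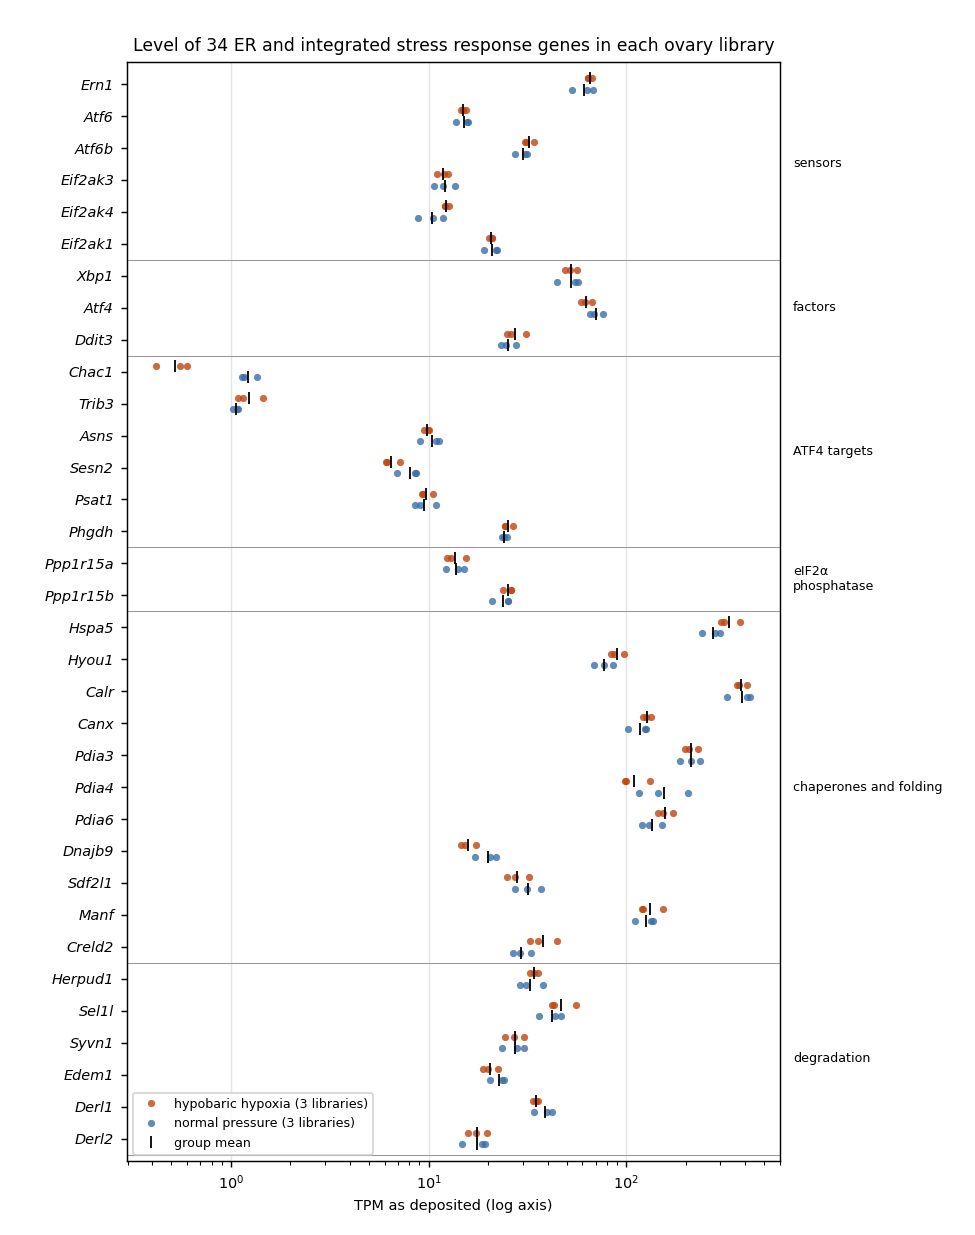
Level of each of the 34 genes in TPM on a log axis, with hypoxia libraries above and normal-pressure libraries below within each row and a tick at each group mean. Levels spanned about the range from Chac1 (mean 0.870 TPM over the 6 libraries) to Calr (383.5 TPM), and the groups lay side by side for most genes.

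Small differences emerged once the libraries were put on the same protein-coding total. Of the 34 genes, 9 then passed the adjusted threshold with limma (26.5%), against 36.8% of the 17099 features tested under that scaling (22% higher and 14.8% lower). The 2 that rose were Eif2ak4 and Hyou1, and the 7 that fell were Chac1, Pdia4, Dnajb9, Sesn2, Atf4, Edem1 and Derl1. No fold exceeded 1.47 on the log2(TPM + 1) scale. Groups did not overlap for 14 of the 34, against 52% of all features. The median standard error was 0.059 log2 units, against 0.12 in TPM as deposited. Leaving out each library in turn under this scaling, an alternative added after the data were seen, Sesn2, Dnajb9 and Derl1 passed all 6 times. Hyou1 passed in 0 of the 6, Edem1 in 1, and Eif2ak4, Atf4 and Pdia4 in 2 each. Chac1 passed all 3 times that it could be tested, each without a hypoxia library, from the group where it was low. Without any 1 normal-pressure library it fell below the filter, so these fits could not probe the group through which it entered the test. With median-ratio scaling 7 of the 34 fell and 0 rose, against 18.5% lower and 16.2% higher of all features, and neither Eif2ak4 nor Hyou1 passed.

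**Figure D2:**
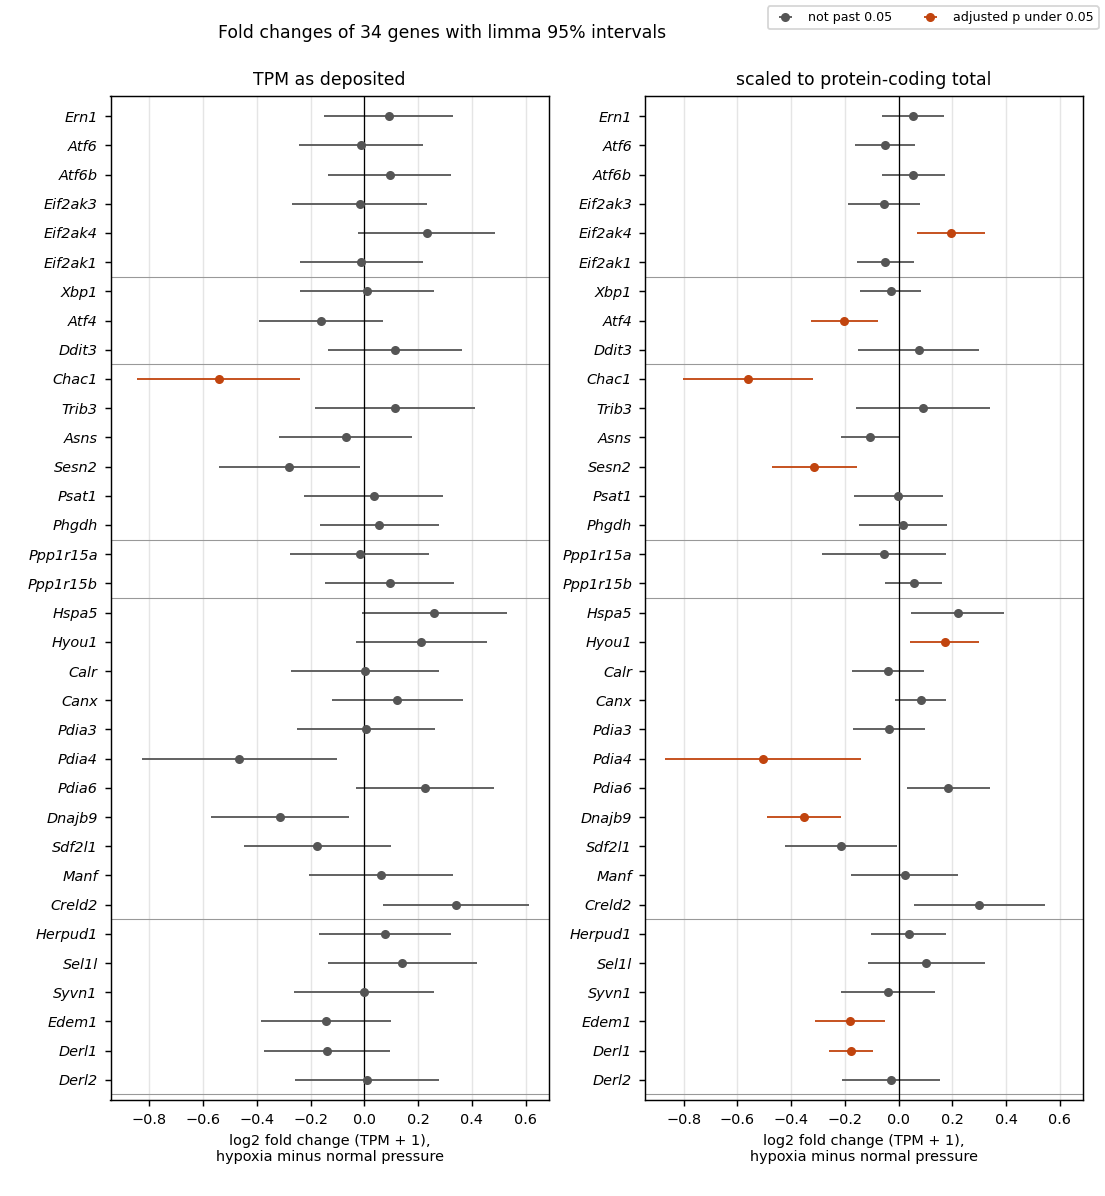
Log2 fold change of each gene, hypoxia minus normal pressure, with limma's 95% interval, in TPM as deposited (left) and scaled to the protein-coding total (right); coloured points passed an adjusted p of 0.05. Intervals are narrower on the right, where 9 genes are coloured, against 1 on the left.

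The stress sensors were transcribed at close to the same level in both groups. Ern1, the RNase and kinase IRE1, had 67.3, 64.3 and 64.3 TPM in hypoxia ovaries, against 67.6, 53.2 and 63.7 TPM in normal-pressure ovaries (log2 fold change 0.09, 95% interval -0.15 to 0.33). Atf6 had 15.5, 14.9 and 14.6 TPM under hypoxia, against 15.9, 13.8 and 15.7 TPM at normal pressure (-0.01, -0.24 to 0.22). Its paralog Atf6b had 34.1, 31.2 and 30.9 TPM under hypoxia, against 31.6, 27.5 and 30.9 TPM at normal pressure (0.09, -0.13 to 0.32). For all 3 the groups overlapped, and the interval for Atf6 ran from 0.845-fold to 1.16-fold. By TPM, which is per transcript length, Ern1 was the most abundant of the 6 sensors.

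Among the eIF2α kinases, the groups separated for GCN2 alone. Eif2ak3, the kinase PERK, had 12.5, 12.0 and 11.02 TPM in hypoxia libraries, against 11.9, 10.7 and 13.6 TPM in normal-pressure libraries (log2 fold change -0.02, 95% interval -0.27 to 0.23). Eif2ak1, the haem-regulated kinase HRI, had 21.1, 20.3 and 21.1 TPM under hypoxia, against 21.9, 19.0 and 22.2 TPM at normal pressure (-0.01, -0.24 to 0.22). Both overlapped fully. Erythroid markers, from cells where HRI is prominent, were far higher under hypoxia (given below with the other markers), and the part of those cells in Eif2ak1 was not tested. Eif2ak4 had 12.1, 12.7 and 12.2 TPM under hypoxia, against 10.5, 8.89 and 11.8 TPM at normal pressure, and every hypoxia library lay above every normal-pressure library. Groups did not overlap for 39.2% of all tested features and for 4 of the 34 genes. The difference of Eif2ak4 did not pass in TPM as deposited (log2 fold change 0.23, 95% interval -0.02 to 0.49, limma adjusted p = 0.195). It passed with protein-coding scaling (0.20, 0.07 to 0.32, adjusted p = 0.0279), at 11.7, 12.4 and 12.3 scaled TPM under hypoxia, against 10.3, 10.2 and 11.01 at normal pressure. In 4 of the 6 fits that left out a library under that scaling it did not (adjusted p up to 0.0827).

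Of the transcription factors, Xbp1, total for both splice forms, had 56.4, 51.8 and 49.3 TPM under hypoxia, against 55.4, 44.7 and 56.9 TPM at normal pressure (log2 fold change 0.010, 95% interval -0.24 to 0.26). Ddit3, which encodes the pro-apoptotic factor CHOP, had 26.0, 24.9 and 31.1 TPM in hypoxia libraries, against 24.6, 23.1 and 27.7 TPM in normal-pressure libraries (0.11, -0.14 to 0.36). Neither passed the test in any setting tried, and for both the groups overlapped. Atf4, the factor of the integrated stress response, had 66.9, 61.6 and 59.2 TPM under hypoxia, against 69.1, 65.3 and 76.2 TPM at normal pressure (-0.16, -0.39 to 0.07, limma adjusted p = 0.322). Its groups overlapped in TPM as deposited but not after protein-coding scaling, where Atf4 had 64.9, 60.5 and 59.96 scaled TPM under hypoxia, against 67.7, 74.8 and 71.2 at normal pressure, and fell (-0.20, adjusted p = 0.0225). It also fell with quantile normalization (adjusted p = 0.0277) and median-ratio scaling (adjusted p = 0.0204), but after protein-coding scaling it did not pass in 4 of the 6 fits that left out a library.

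The steepest change was in an ATF4 target of low level. Chac1, a glutathione-degrading enzyme induced through ATF4 and CHOP, fell to 0.60, 0.42 and 0.55 TPM in hypoxia libraries, against 1.14, 1.16 and 1.35 TPM in normal-pressure libraries. The groups did not overlap. The mean was 0.523 ± 0.0929 TPM under hypoxia and 1.22 ± 0.116 TPM at normal pressure (SD, n = 3 each), a ratio of means of 0.430, and the log2 fold change of TPM + 1 was -0.54 (SE 0.14, limma adjusted p = 0.0155). At this level the added 1 TPM compresses the change; with 0.1 added in its place the log2 fold change was -1.09 (adjusted p = 0.0229). Chac1 passed in every setting in which it was tested except without hypoxia replicate 2 (adjusted p = 0.0551). Except in the setting with no filter, it entered these tests through its normal-pressure libraries alone, the group where it was high. Its entry thus favoured a difference. It could not be tested without any 1 normal-pressure library, or with a minimum of 5 TPM, so the settings could not probe that group. Its mean level over the 6 libraries was above only 0.239% of tested features, and the number of reads behind it is unknown.

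None of the other 5 ATF4 targets passed in TPM as deposited. Sesn2, a leucine sensor that restrains mTORC1, had 7.13, 6.06 and 6.14 TPM under hypoxia, against 8.53, 6.95 and 8.66 TPM at normal pressure (log2 fold change -0.28, limma adjusted p = 0.132). With protein-coding scaling Sesn2 fell, at 6.91, 5.95 and 6.22 scaled TPM under hypoxia, against 8.36, 7.96 and 8.09 at normal pressure (-0.31, adjusted p = 0.0114). Every scaled hypoxia value of Sesn2 lay below every normal-pressure value, and the call held without any 1 library. Trib3, a pseudokinase that feeds back on ATF4 and CHOP, had 1.45, 1.09 and 1.15 TPM under hypoxia, against 1.08, 1.07 and 1.02 TPM at normal pressure. The lowest hypoxia value of 1.09 TPM lay next to the highest normal-pressure value of 1.08 TPM, and the log2 fold change of 0.11 did not pass (adjusted p = 0.612). Asns, which makes asparagine, and Psat1 and Phgdh, which make serine, had log2 fold changes of -0.07, 0.03 and 0.06, with 95% intervals between -0.32 and 0.29. The 4 genes whose promoters hold the CARE core, Asns, Chac1, Herpud1 and Trib3, thus ranged in log2 fold change from -0.54 to 0.11, and 1 of the 4 passed.

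Both regulators that direct phosphatase to eIF2α overlapped between groups. Ppp1r15a, the stress-induced GADD34, had 12.4, 13.0 and 15.5 TPM under hypoxia, against 15.1, 12.2 and 14.1 TPM at normal pressure (log2 fold change -0.02, 95% interval -0.28 to 0.24). Ppp1r15b, the constitutive regulator CReP, had 26.3, 26.1 and 23.7 TPM under hypoxia, against 25.2, 20.8 and 25.3 TPM at normal pressure (0.09, -0.15 to 0.33).

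The ER chaperones and folding enzymes held the highest levels, and here the genes diverged from one another. Summed TPM of the 11 was 1802, 1553 and 1512 under hypoxia, against 1592, 1342 and 1755 at normal pressure, which overlapped. Calr, a lectin chaperone that also buffers calcium, was the most abundant of the 34 genes (above 99.0% of tested features), with 409.6, 373.4 and 365.1 TPM under hypoxia, against 406.6, 321.9 and 424.7 TPM at normal pressure. Hspa5, the Hsp70 of the ER lumen, followed with 375.0, 312.6 and 301.4 TPM in hypoxia libraries, against 283.1, 243.1 and 297.9 TPM in normal-pressure libraries. Every hypoxia library lay above every normal-pressure library for Hspa5, though the gap between hypoxia replicate 3 and normal-pressure replicate 3 was small, and the log2 fold change of 0.26 (95% interval -0.0089 to 0.53) did not pass (limma adjusted p = 0.17). Calr had a log2 fold change of 0.00 (95% interval -0.27 to 0.28).

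None of the 11 passed in the main test of TPM as deposited, and 3 passed with protein-coding scaling (27.3%, against 36.8% of all features under that scaling). Pdia4, a disulfide isomerase, had 131.5, 100.01 and 98.5 TPM under hypoxia, against 144.1, 116.1 and 205.0 TPM at normal pressure (log2 fold change -0.46, limma adjusted p = 0.0704). Its groups overlapped, and normal-pressure replicate 3 lay far above the rest. Without any scaling Pdia4 passed as lower with a minimum of 5 TPM (adjusted p = 0.0164) and with robust variance (0.00153). It also passed without hypoxia replicate 1 (0.00222), normal-pressure replicate 1 (0.0116) or normal-pressure replicate 2 (0.0445), whereas without normal-pressure replicate 3 its log2 fold change was -0.24 (adjusted p = 0.255). With protein-coding scaling it fell (-0.50, adjusted p = 0.0401), but in 4 of the 6 fits that left out a library it did not pass. Dnajb9, the BiP cochaperone ERdj4 and an XBP1 target, had 17.4, 15.3 and 14.6 TPM under hypoxia, against 20.5, 17.1 and 22.0 TPM at normal pressure (-0.31, adjusted p = 0.0824, or 0.0424 with robust variance and 0.019 without normal-pressure replicate 2). After protein-coding scaling Dnajb9 was 16.9, 15.0 and 14.8 under hypoxia, against 20.1, 19.6 and 20.6 at normal pressure, with a clear gap, and fell (-0.35, adjusted p = 0.00485). That call held without any 1 library. Hyou1, a large Hsp70-like chaperone that acts as exchange factor for BiP, had 97.9, 86.4 and 83.8 TPM under hypoxia, against 77.2, 69.0 and 85.4 TPM at normal pressure (0.21, adjusted p = 0.22). With protein-coding scaling it rose (0.17, adjusted p = 0.0463), and the call was lost whichever library was left out. Hyou1 also passed as higher with quantile normalization (adjusted p = 0.0203), but not with median-ratio scaling (0.166).

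Creld2, a secreted ER protein, had the highest log2 fold change of the 34, 0.34 (95% interval 0.07 to 0.61, limma adjusted p = 0.0774), with 44.9, 32.6 and 35.8 TPM under hypoxia, against 28.9, 26.6 and 32.9 TPM at normal pressure. Its groups overlapped between 32.6 and 32.9 TPM. At the same fold it passed with a minimum of 5 TPM (adjusted p = 0.0409) and with robust variance (0.0241), and it also passed without hypoxia replicate 2 (0.0391) or normal-pressure replicate 3 (0.0484). Pdia6, a disulfide isomerase that binds IRE1 and PERK, had 173.4, 153.8 and 144.1 TPM under hypoxia, against 130.9, 120.7 and 151.7 TPM at normal pressure (0.23, adjusted p = 0.21). Pdia6 passed as higher with quantile normalization (adjusted p = 0.0393), but not with median-ratio (0.204) or protein-coding scaling (0.0637). Sdf2l1, which keeps BiP clients soluble, had a log2 fold change of -0.17 (adjusted p = 0.373). Canx, Pdia3 and Manf, a membrane lectin chaperone, the disulfide isomerase of glycoproteins and a secreted BiP-binding factor, lay at 0.12, 0.01 and 0.06, with 95% intervals between -0.25 and 0.37.

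A ratio within a library does not depend on how that library was scaled. Each of the 11 genes was therefore also expressed as a share of their summed TPM, an analysis added after the data were seen. BiP took 20.8%, 20.1% and 19.9% of the sum in hypoxia libraries, against 17.8%, 18.1% and 17.0% in normal-pressure libraries. Its cochaperone Dnajb9 took 0.965%, 0.982% and 0.967% under hypoxia, against 1.29%, 1.28% and 1.25% at normal pressure. Pdia4 took 7.30%, 6.44% and 6.52% under hypoxia, against 9.05%, 8.65% and 11.7% at normal pressure. So BiP made up more, and Dnajb9 and Pdia4 less, of the chaperone transcripts in each hypoxia library than in any normal-pressure library.

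In all, 7 of the 11 shares did not overlap between groups. For levels, rather than shares, the groups did not overlap for 39.2% of all tested features as deposited and 52% with protein-coding scaling. Shares were higher under hypoxia for Hspa5 (20.3 ± 0.462% under hypoxia and 17.6 ± 0.588% at normal pressure, SD, n = 3 each), Pdia6 (9.69 ± 0.193% and 8.62 ± 0.385%), Hyou1 (5.51 ± 0.0689% and 4.95 ± 0.164%) and Creld2 (2.32 ± 0.201% and 1.89 ± 0.0871%). They were lower for Pdia4 (6.75 ± 0.474% under hypoxia and 9.80 ± 1.65% at normal pressure), Sdf2l1 (1.73 ± 0.105% and 2.04 ± 0.0680%) and Dnajb9 (0.971 ± 0.00957% and 1.27 ± 0.0170%). Each of the 7 had an exact two-sided permutation p of 0.1, the smallest that 3 against 3 libraries can give, and 0.157 after adjustment over the 11, so none passed. Shares are tied to one another: with Pdia4 left out of the sum, Hspa5, Pdia6, Hyou1 and Creld2 were still higher and Dnajb9 and Sdf2l1 still lower in every hypoxia library, and Calr and Pdia3 became lower too. A share shows unequal change within the group, not that any gene stayed level.

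**Figure D3:**
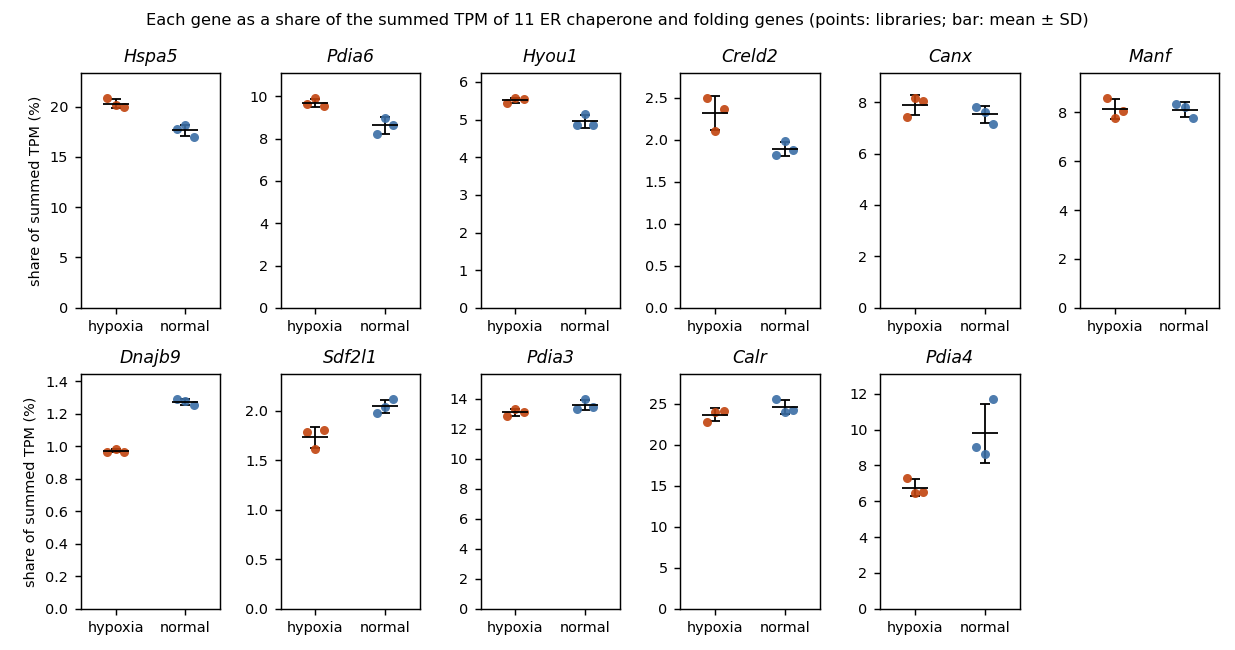
Share of each gene in the summed TPM of the 11 ER chaperone and folding genes, in percent, with 1 point per library and bars for mean ± SD, ordered by the difference between groups. Hypoxia points lie above all normal-pressure points for Hspa5, Pdia6, Hyou1 and Creld2, and below them for Pdia4, Sdf2l1 and Dnajb9.

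The 6 genes with an ERSE in the promoter did not move as a block. In TPM as deposited their log2 fold changes were 0.34 for Creld2, 0.26 for Hspa5, 0.23 for Pdia6, 0.12 for Canx, 0.00 for Calr and -0.00064 for Syvn1, and none passed. Hypoxia shares without overlap were higher for Creld2, Hspa5 and Pdia6, while the shares of Canx and Calr overlapped, at 7.88 ± 0.387% under hypoxia and 7.53 ± 0.329% at normal pressure for Canx, and 23.6 ± 0.791% under hypoxia and 24.6 ± 0.841% at normal pressure for Calr. The promoters of Pdia4, Dnajb9 and Sdf2l1, whose shares were lower, held none of the searched motifs, and nor did that of Pdia3, whose share overlapped. These shares depend on the sum chosen. With Pdia4 left out, Calr, which has an ERSE, was lower without overlap (25.3% under hypoxia and 27.3% at normal pressure). Pdia3 was then lower too (14.0% and 15.1%). Hyou1, whose share was higher, had no promoter entry to search. Only exact matches within 300 bases were searched, so a promoter without a match may still hold such an element.

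Genes of ER-associated degradation, which draws misfolded proteins out of the ER for the proteasome, overlapped between groups throughout in TPM as deposited. Syvn1, the ubiquitin ligase HRD1, and Sel1l, its partner subunit, had log2 fold changes of -0.00064 and 0.14. Herpud1, an ER-stress-induced scaffold of that ligase, had 36.0, 34.3 and 32.7 TPM under hypoxia, against 31.1, 29.1 and 37.8 TPM at normal pressure (0.08, limma adjusted p = 0.685). Derl2, a channel component, lay at 0.01. Derl1, its paralog, had 35.7, 35.2 and 33.96 TPM under hypoxia, against 39.7, 34.2 and 42.3 TPM at normal pressure (-0.14, adjusted p = 0.408). Scaled to the protein-coding total, Derl1 was 34.6, 34.5 and 34.4 under hypoxia, against 38.9, 39.2 and 39.5 at normal pressure, groups far tighter than the gap between them, and it fell (-0.18, adjusted p = 0.00819) with or without any 1 library. Edem1, a mannosidase-like receptor for misfolded glycoproteins, also fell after that scaling (-0.18, adjusted p = 0.0391), but passed in 1 of the 6 fits that left out a library. A processed pseudogene of Derl1 shares at least 200 bases with it at 95% identity or more, so its reads may have been split; Phgdh has 13 such copies.

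**Figure D4:**
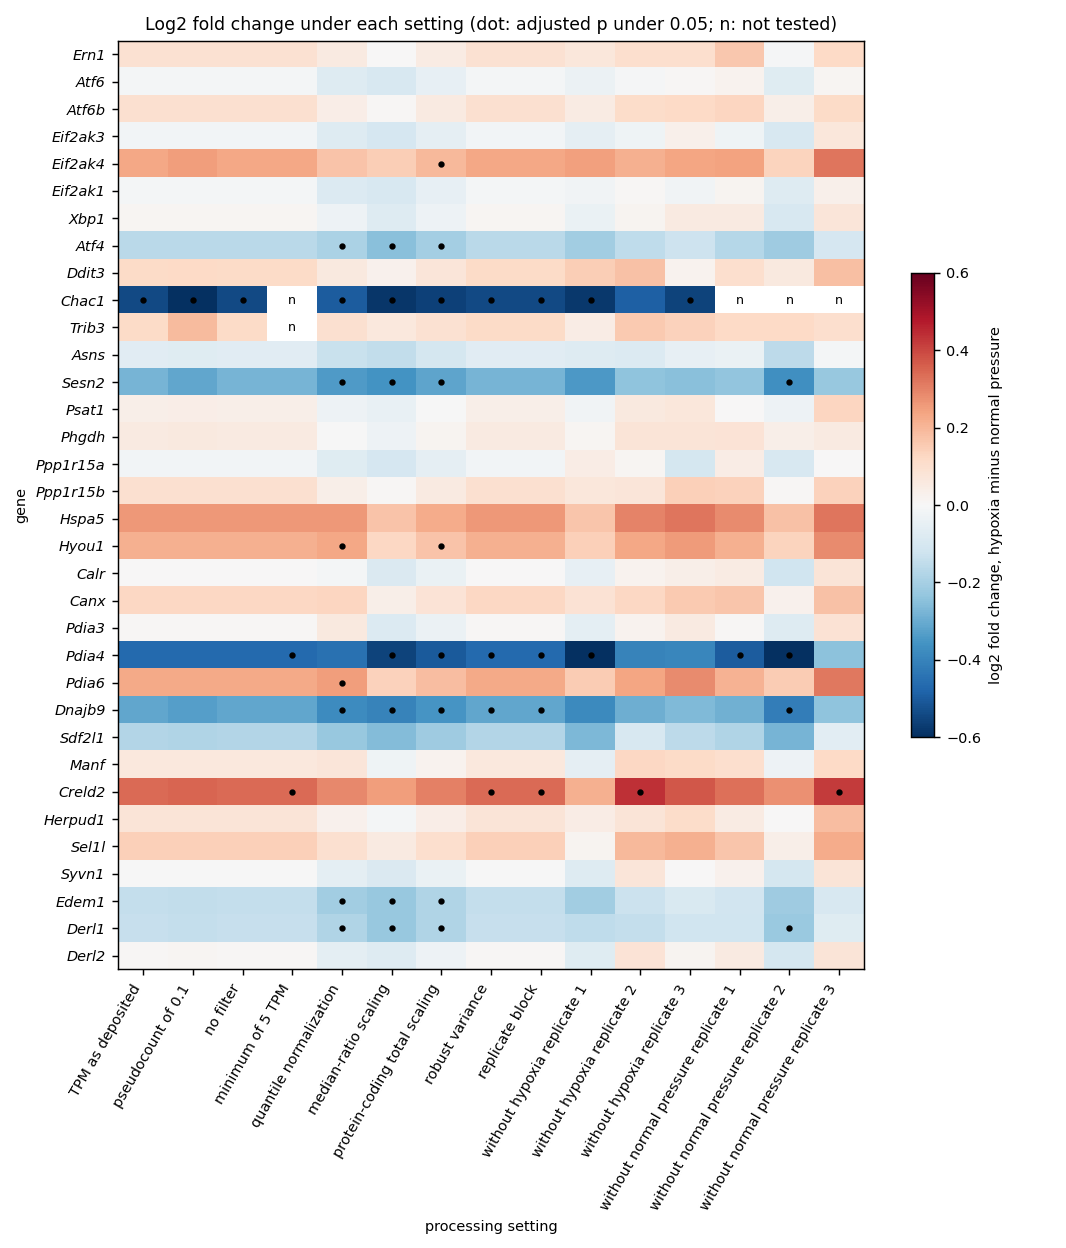
Log2 fold change of each gene under each processing setting, from blue (lower under hypoxia) to red (higher), with a dot where the adjusted p was under 0.05 and n where the gene was not tested. Dots gather in the quantile, median-ratio and protein-coding columns, on Atf4, Sesn2, Dnajb9, Edem1 and Derl1, while Chac1 carries one in every column in which it was tested except the one without hypoxia replicate 2.

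The wider pathway was described with 10 lists holding 301 genes, of which 296 were tested. Of these, 14 rose and 20 fell in TPM as deposited (11.5%, against 18.3% of all tested features), and the median log2 fold change was -0.020. Calls made up 33.3% of partners of the unfolded protein response and membrane-bound factors related to ATF6 (9 of 27), and there were 0 among the 23 cytosolic aminoacyl-tRNA synthetases and the 17 eIF2, eIF2B and GCN2-partner genes. At an unadjusted p under 0.05 each of those last lists had 1 gene. With protein-coding scaling, 9 synthetases fell and 0 rose, and 2 of the eIF2 and GCN2 genes rose, Dnajc3, an inhibitor of eIF2α kinases, and Gcn1, the activator of GCN2. These calls were 39.1% of the synthetases and 11.8% of the eIF2 and GCN2 list, against 36.8% of all features under that scaling. Of the partners and membrane-bound factors, 7 then rose and 8 fell (55.6%). Of all features, 22% were then higher and 14.8% lower.

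Among 35 other targets of ATF4 and CHOP, 6 fell and 1 rose in TPM as deposited (20%, against 18.3% of all tested features). Groups did not overlap for 16 of the 35, 7 higher and 9 lower under hypoxia. Of all tested features, 27.6% were higher and 11.6% lower without overlap. Slc1a5, a glutamine transporter, fell to 21.3 ± 3.43 TPM under hypoxia, against 35.8 ± 5.56 TPM at normal pressure (SD, n = 3 each here and below; log2 fold change -0.72, limma adjusted p = 0.00181). Stc2, a secreted glycoprotein of calcium and phosphate balance, fell to 6.76 ± 1.21 TPM, against 11.8 ± 1.596 TPM at normal pressure (adjusted p = 0.00194). Gadd45a, a growth-arrest gene, fell to 22.3 ± 1.90 TPM, against 39.2 ± 12.9 TPM at normal pressure (adjusted p = 0.00657). Ddit4, which restrains mTORC1, Cebpb, a partner of ATF4, and Pycr1, of proline synthesis, also fell, at log2 fold changes of -0.44 each. Gdf15, a stress cytokine, rose to 2.21 ± 0.821 TPM, against 1.16 ± 0.0924 TPM at normal pressure (adjusted p = 0.0367), and lost that call under quantile, median-ratio and protein-coding scaling and without hypoxia replicate 1 (adjusted p = 0.211), normal-pressure replicate 2 (0.107) or normal-pressure replicate 3 (0.0627). Several of these genes have other regulators besides ATF4. With protein-coding scaling 9 of the 35 fell and 4 rose, Fyn, Slc6a9, Slc7a5 and Slc38a2 (37.1%, against 36.8% of all features).

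Among membrane-bound factors, Creb3l3, a liver-enriched relative of ATF6, rose to 5.03 ± 0.647 TPM under hypoxia, against 1.88 ± 0.491 TPM at normal pressure (log2 fold change 1.08, limma adjusted p = 0.000152). Creb3l1, known for control of collagen secretion, fell to 11.1 ± 0.664 TPM, against 17.1 ± 2.24 TPM at normal pressure (-0.57, adjusted p = 0.00374). The family thus split in direction. Agr2, a disulfide isomerase of secretory epithelia, fell to 3.59 ± 1.25 TPM, against 8.55 ± 3.21 TPM at normal pressure (-1.05, adjusted p = 0.00323). Map3k5, the kinase ASK1 that IRE1 engages through TRAF2, rose to 43.8 ± 2.85 TPM, against 29.8 ± 3.16 TPM at normal pressure (0.54, adjusted p = 0.00346). Nfya, the NF-Y subunit that helps ATF6 bind the ERSE, rose to 28.2 ± 2.36 TPM, against 20.0 ± 1.93 TPM at normal pressure (0.48, adjusted p = 0.00881). Creb3l4 fell (-0.54, adjusted p = 0.0317) but did not pass without hypoxia replicate 2 (0.18), normal-pressure replicate 2 (0.0883) or normal-pressure replicate 3 (0.108). The calcium channel gene Itpr1 rose as well (0.41), and Wfs1, an ER membrane protein, and Bak1, of the BCL2 family, fell (-0.53 and -0.49).

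Of 41 degradation genes outside the 34, 3 rose and 0 fell in TPM as deposited (7.32%). Of all tested features, 18.3% passed (11.1% higher and 7.2% lower). With protein-coding scaling 5 of the 41 rose and 9 fell (34.1%, against 36.8% of all features). Derl3, a Derlin enriched in secretory cells such as plasma cells, rose to 44.5 ± 5.72 TPM under hypoxia, against 23.5 ± 0.918 TPM at normal pressure (log2 fold change 0.89, limma adjusted p = 8.33e-05). Derl1 and Derl2 lay at -0.14 and 0.01. Sel1l3, related in name and sequence to Sel1l, rose to 21.2 ± 2.66 TPM, against 11.1 ± 0.621 TPM at normal pressure (0.86, adjusted p = 0.000133). Erlin1 also rose (0.42, adjusted p = 0.0203), but lost its call when hypoxia replicate 1 (0.127) or 2 (0.0822) was left out. Of the 5 tested markers of B and plasma cells, a list that includes Derl3, Derl3 was higher, Sdc1 was lower and 3 did not pass, and the list summed to 89.1 to 103 TPM under hypoxia, against 81.7 to 119 TPM at normal pressure. The part of those cells in the rise of Derl3 was not tested.

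Of 46 other chaperones and folding enzymes, 2 rose and 2 fell in TPM as deposited (8.7%, against 18.3% of all tested features). Ero1lb, an oxidase that recharges disulfide isomerases, rose to 17.8 ± 2.00 TPM under hypoxia, against 11.6 ± 1.20 TPM at normal pressure (log2 fold change 0.57, limma adjusted p = 0.00364). The disulfide isomerase Pdia5 rose to 19.5 ± 0.708 TPM, against 14.6 ± 1.10 TPM at normal pressure (adjusted p = 0.017), a call lost without hypoxia replicate 1 (0.0809) or 2 (0.0799). Fkbp11, a prolyl isomerase, fell to 8.47 ± 0.645 TPM, against 12.6 ± 1.48 TPM at normal pressure (adjusted p = 0.00759). Qsox1, a sulfhydryl oxidase, fell to 39.4 ± 2.30 TPM, against 53.8 ± 3.88 TPM at normal pressure (adjusted p = 0.00988), and did not pass without hypoxia replicate 2 (0.0677). Hsp90b1, the ER Hsp90, had 327.1, 297.5 and 284.2 TPM under hypoxia, against 263.6, 215.1 and 290.3 TPM at normal pressure. It did not pass in TPM as deposited (adjusted p = 0.197), but was called higher with protein-coding scaling. Under that scaling 7 of the 46 rose and 12 fell (41.3%, against 36.8% of all features). Of all features, 22% were then higher and 14.8% lower.

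In TPM as deposited the remaining lists had calls near or below the 18.3% of all tested features. Calls made up 15.4% of protein entry, 8.82% of N-glycosylation and 2.86% of ER-to-Golgi transport. For protein entry into the ER, Tram2, a translocon-associated protein, rose to 37.3 ± 1.39 TPM under hypoxia, against 22.1 ± 1.32 TPM at normal pressure (log2 fold change 0.73, limma adjusted p = 0.000199), one of 2 that rose and 2 that fell among 26. For N-glycosylation, Alg13, a subunit of a sugar transferase, rose to 20.1 ± 1.24 TPM, against 13.1 ± 2.98 TPM at normal pressure (adjusted p = 0.00809), 1 of 3 called among 34. Of 16 genes of ER-phagy and UFMylation, the conjugation of the ubiquitin-like protein UFM1 at the ER, 3 fell and 0 rose (18.8%, against 18.3% overall). These were Ufm1 itself (8.88 ± 1.51 TPM under hypoxia and 14.2 ± 3.15 TPM at normal pressure, adjusted p = 0.00992), its conjugating enzyme Ufc1 (32.0 ± 0.655 TPM and 45.5 ± 1.73 TPM, adjusted p = 0.00335) and its protease Ufsp1 (1.68 ± 0.497 TPM and 3.17 ± 0.674 TPM, adjusted p = 0.0123). Ufsp1 did not pass without normal-pressure replicate 2 (0.0583). Of 35 genes of ER-to-Golgi transport, the coat subunit Sec24b rose (0.36, adjusted p = 0.0435) and did not pass without any 1 hypoxia library (0.0804 to 0.142). Fits without 1 of the libraries also lost Sec61a2, Sec11c and Srp14 of protein entry and Alg3 and Gmppb of glycosylation, whose adjusted p-values with all libraries were 0.0471, 0.0191, 0.0398, 0.0241 and 0.0278. With protein-coding scaling 2 rose and 7 fell in protein entry (34.6%), and 6 rose and 9 fell in N-glycosylation (44.1%). In ER-to-Golgi transport 1 rose and 7 fell (22.9%), and in ER-phagy and UFMylation 1 rose and 5 fell (37.5%). Of all features, 36.8% passed under that scaling.

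**Figure D5:**
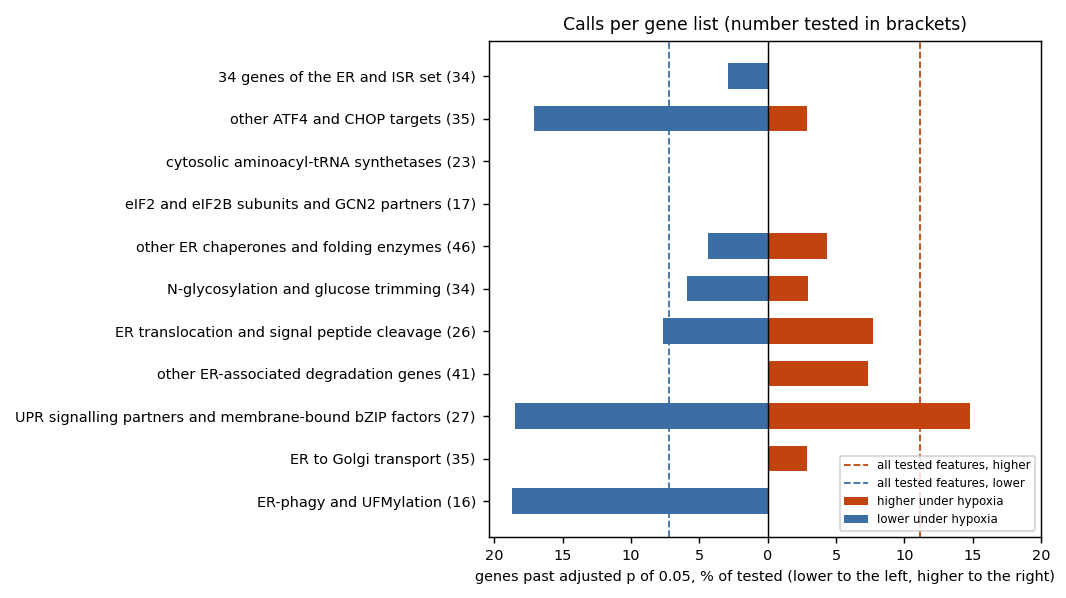
Percent of tested genes past an adjusted p of 0.05 in TPM as deposited, higher to the right and lower to the left, for the 34 genes and the 10 pathway lists; dashed lines mark the share of all tested features, 11.1% higher and 7.2% lower. The 34 genes reach 2.94% on the left and 0 on the right.

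Markers of some cell types, luteal cells, oocytes, erythroid cells and adipocytes among them, moved far more than the stress genes. Calls below are in TPM as deposited, where 18.3% of all tested features passed (11.1% higher and 7.2% lower). Luteal markers, from cells rich in ER, were lower for 13 of 15, with summed TPM of 2363 to 3141.5 under hypoxia, against 5731 to 8688 at normal pressure. Oocyte markers were higher for 13 of 13 tested (253 to 311 TPM under hypoxia, against 156 to 198 TPM at normal pressure), and erythroid markers for 5 of 5 (1663 to 2240 TPM under hypoxia, against 247 to 447 TPM at normal pressure). Adipocyte markers were lower for 7 of 7 (124 to 230.0 TPM under hypoxia, against 288 to 365 TPM at normal pressure). Granulosa markers had 5 higher and 2 lower of 15, and theca markers 5 higher and 2 lower of 10. Macrophage markers had 1 lower of 9 (11.1%), oviduct markers 1 lower of 8 (12.5%) and endothelial markers 1 higher of 8 (12.5%). Each of these lists was called less often than all features. Smooth muscle markers had 1 higher and 3 lower of 8, and B and plasma cell markers are given above. Oviduct markers summed to 218 to 428 TPM under hypoxia, against 497 to 748 TPM at normal pressure. Ovgp1, the one called, had means of 294 and 585 TPM. Exocrine pancreas markers, 2 lower of 4 tested, summed to 5.71 to 7.67 TPM under hypoxia, against 9.11 to 9.32 TPM at normal pressure, with Cpb1, Try5 and Pnlip listed at 0 in some libraries. The part of these cell types in the fold changes of the stress genes was not tested, and in whole ovary fewer cells of a type and less RNA per cell cannot be told apart.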

How the data were processed

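Per the labels, SMARTer libraries were made from total RNA. Aligners HISAT2 and Bowtie2, DESeq2 and build GRCm38.p6 are named, with no version of a tool, per the submitters' processing notes; counter and annotation: not given in the sources used here. TPM values were deposited for 33036 features, 1 column per library. Groups and replicate numbers came from the titles. Features of at least 1 TPM in at least 3 libraries were tested with limma 3.58.1 (R 4.3.3) and a mean-variance trend on log2(TPM + 1), hypoxia minus normal pressure, two-sided, adjusted over all tested features by Benjamini-Hochberg and called at 0.05; the fit was tested on simulated data. Fold changes on this scale understate changes of low genes. Alternatives varied the pseudocount, filter, scaling, variance, block and libraries. Coordinates and promoters came from RefSeq, and genes sharing sequence from GENCODE. In pathway lists the 3 highest and 3 lowest called genes without overlap were eligible to be named. Ddit4, Cebpb, Pycr1, Itpr1, Wfs1, Bak1, Dnajc3, Gcn1, Hsp90b1, Fyn, Slc6a9, Slc7a5 and Slc38a2 were chosen after their values were seen. The 34 genes and all lists were chosen with earlier results of these data known.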

Additional observations from a re-analysis of the deposited data

How the results depend on the processing

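Most calls among the stress genes depended on scaling. The 34 genes had 0 higher and 1 lower in TPM as deposited, 2 and 6 with quantile normalization, 0 and 7 with median-ratio scaling and 2 and 7 with protein-coding scaling, where 18.3%, 36%, 34.6% and 36.8% of all features passed. They had 1 higher and 3 lower with robust variance (23.1% of all features) and likewise with a replicate block (24%), in both cases Creld2 higher and Chac1, Pdia4 and Dnajb9 lower, and 1 higher and 1 lower, Creld2 and Pdia4, with a minimum of 5 TPM (22.5%); a pseudocount of 0.1 and no filter left 0 and 1. Leaving out each library gave 0 to 1 higher and 0 to 4 lower, the 4 (Sesn2, Pdia4, Dnajb9 and Derl1) without normal-pressure replicate 2; Chac1 could not be tested there. Pathway genes, 14 higher and 20 lower, came to 37 and 74 with quantile normalization, 34 and 74 with protein-coding scaling, 99 lower with median-ratio scaling, and 7 and 4 with no filter, where 3.73% of all features passed. Leaving out each library gave 8 to 16 higher and 11 to 64 lower. Of all calls, 60.7% were higher as deposited, 46.7% with median-ratio scaling and, leaving out normal-pressure replicates 2 and 3 in turn, 46.4% and 72%. None of the genes among the 34 called here changed direction. Others did: 5 of the 34 changed sign with quantile normalization, 8 with median-ratio scaling and 5 with protein-coding scaling. The median log2 fold change of the 34 was 0.0095 as deposited and -0.077 with median-ratio scaling. Replicate numbers did not pair the libraries (correlations of deviations -0.034, 0.11 and -0.050 for numbers 1 to 3). Read depth is unknown, which limits what can be said of Chac1 and Trib3.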
